A study of Mus musculus with 6 samples.

Results

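Interferon-stimulated genes are the genes that cells switch on when interferons reach them. The 46 genes described here were taken from the deposited count table by gene symbol, from a list of well-known interferon targets, and all 46 were found among the 54532 genes of the table. They were split by textbook role into 3 IFITM genes, 30 targets of type I interferon, 9 GTPases that respond mainly to interferon-gamma, and 4 transcription factors that serve both branches. Expression was measured by RNA-seq of eWAT, the epididymal depot of white adipose tissue.

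The experiment compared 3 samples from cachectic mice with 3 from control mice. The labels do not say that the samples of a group came from separate mice. Each sample is called a mouse below on that assumption. The cachectic mice had been inoculated subcutaneously with LLC cells, the Lewis lung carcinoma line that was derived from a C57BL/6 mouse, and the control mice carried no tumor. Per the study's methods the wild-type animals were male C57BL/6 mice of 6 to 10 weeks, tissue was taken on day 21, and a mouse was called cachectic when it had lost more than 20% of its body weight. The model holds 1 transplanted tumor line in 1 inbred strain. Total counts lay between 14928766 and 18855546 per library. Adipocyte markers, a list of 10 genes used to check the tissue, were all present, gave 2 higher and 1 lower in the test described below and summed to between 26179 and 33421 CPM (counts scaled to a common library size) in control mice and between 28581 and 43845 in cachectic mice. Of all tested genes, 9.0% were higher and 8.63% lower in that test.

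Type I interferons (interferon-alpha and interferon-beta) bind the receptor chains IFNAR1 and IFNAR2, which start the kinases JAK1 and TYK2. The signal leads STAT2 and IRF9 to the interferon-stimulated response element (ISRE) in the promoters of antiviral genes. Interferon-gamma, made mainly by T cells and natural killer cells, binds IFNGR1 and IFNGR2, and its signal acts on the gamma-activated site (GAS), from which IRF1 and the large GTPases are induced. The IFITM proteins sit in membranes and block the entry of enveloped viruses. In adipose tissue these genes are expressed by adipocytes, stromal cells, endothelial cells and immune cells alike, and in a bulk sample fewer cells of a type and less RNA per cell cannot be told apart.

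The 3 IFITM genes lie in 1 cluster on chromosome 7. Their promoters are shown first because the difference of Ifitm1 between the groups was the largest of the 46 members. Sequences are from RefSeq (build GRCm38.p6), which held promoter windows of 250 bases before to 50 bases after the start for 35 of the 46 members. The windows were searched on both strands for the ISRE core GAAANNGAAA (TTTCNNTTTC on the other strand) and for the GAS letters TTCNNNGAA, and capitals mark the matches. The Ifitm1 window lies inside the deposited gene model, which opens upstream of the RefSeq start.
Ifitm1, the 250 bases before the start, chr7:140967826-140968075, plus strand: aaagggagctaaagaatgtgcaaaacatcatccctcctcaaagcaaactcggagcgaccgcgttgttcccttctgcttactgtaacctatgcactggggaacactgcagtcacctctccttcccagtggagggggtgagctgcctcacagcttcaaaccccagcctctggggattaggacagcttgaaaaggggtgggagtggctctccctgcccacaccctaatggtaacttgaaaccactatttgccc
Ifitm2, the 250 bases before the start, chr7:140955962-140956211, minus strand: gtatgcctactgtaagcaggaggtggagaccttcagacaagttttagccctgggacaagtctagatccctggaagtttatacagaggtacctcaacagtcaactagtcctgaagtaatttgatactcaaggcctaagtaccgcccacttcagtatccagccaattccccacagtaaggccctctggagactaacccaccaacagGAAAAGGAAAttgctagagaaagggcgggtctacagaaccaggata
Ifitm3, the first 30 bases after the start, chr7:141010715-141010744, minus strand: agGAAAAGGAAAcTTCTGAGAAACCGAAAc
Neither motif occurred in the Ifitm1 window. The Ifitm2 window held an ISRE core whose first base was at -46, and the Ifitm3 window held ISRE cores and a GAS match just after the start, where the GAS letters overlap an ISRE core.

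The other members whose expression was higher in cachectic mice are shown next, followed by members of the type I and interferon-gamma groups for comparison.
Irf1, chr11:53769888-53769967, plus strand: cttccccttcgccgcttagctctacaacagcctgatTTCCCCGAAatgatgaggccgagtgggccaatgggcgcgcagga
Isg20, chr7:78913315-78913394, plus strand: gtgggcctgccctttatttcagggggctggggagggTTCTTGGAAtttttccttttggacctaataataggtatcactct
Trim25, chr11:88999323-88999402, plus strand: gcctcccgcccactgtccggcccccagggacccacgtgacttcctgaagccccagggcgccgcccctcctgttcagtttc
Ifit1, chr19:34640750-34640829, plus strand: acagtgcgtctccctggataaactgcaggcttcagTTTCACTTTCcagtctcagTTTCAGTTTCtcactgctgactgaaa
Ifit3, chr19:34583338-34583417, plus strand: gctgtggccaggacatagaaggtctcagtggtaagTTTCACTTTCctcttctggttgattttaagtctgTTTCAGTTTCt
Ifit3b, chr19:34607734-34607813, plus strand: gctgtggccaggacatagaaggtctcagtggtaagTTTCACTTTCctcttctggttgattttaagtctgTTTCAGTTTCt
Gbp2, chr3:142620569-142620648, plus strand: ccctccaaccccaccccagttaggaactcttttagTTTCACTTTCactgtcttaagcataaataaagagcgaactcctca
Igtp, chr11:58199476-58199555, plus strand: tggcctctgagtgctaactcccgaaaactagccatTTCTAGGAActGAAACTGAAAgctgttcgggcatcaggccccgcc
Irf1 and Isg20 held a GAS match without an ISRE core, and the Trim25 window held neither motif. Ifit1, Ifit3 and Ifit3b each held a pair of ISRE cores, and the stretch printed for Ifit3 is identical to that of its copy Ifit3b. Gbp2 held an ISRE core, and Igtp held both motifs.

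Over all members with an entry, 21 of 43 windows (48.8%) held the ISRE core, against 3.44% of all 32851 promoter windows, and 13 (30.2%) held the GAS letters, against 8.30%. By gene, the ISRE core was found in 2 of 3 IFITM genes, 11 of 21 type I targets, 7 of 7 GTPases and 1 of 4 transcription factors. None of the 4 members called higher in cachectic mice held the ISRE core (0 of 4), against 21 of the 31 other members with an entry. The median log2 fold change of cachectic over control mice was -0.18 for the 21 members with the core and 0.23 for the 14 without it. All 4 members called higher are among those 14, so the medians and the count are not separate observations. The gene groups also differed in how often they held the core. All 7 GTPases held it and none of them was called. Of the 9 genes with an entry in the effector group of Isg20, 3 held it. Whether the core goes with the calls was not tested. A match is a description of letters, not a binding site or a cause, and no occupancy was measured. Members without an entry were Mx1, Mx2, Iigp1, Usp18, Dhx58, Rtp4, Gbp4, Ifi27, Zbp1, Oas2 and Parp14.

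All 46 members had enough counts to be tested, and 5 passed the threshold, an adjusted p-value under 0.05 in edgeR's quasi-likelihood test with Benjamini-Hochberg adjustment over 16003 genes. Expression of Ifitm1, Isg20, Trim25 and Irf1 was upregulated in wasting eWAT, and expression of Mx1 was downregulated. The other 41 members did not pass. The 4 higher members are 8.70% of the 46, beside 9.0% of all tested genes called higher, and the 1 lower member is 2.17%, beside 8.63% of all tested genes called lower. Groups did not overlap for 14 of the 46 members, where 40.5% of all tested genes had groups that did not overlap, and the unadjusted p-value was under 0.05 for 17 members, where the share among all tested genes was 34.4%. The median log2 fold change was -0.08 over the members and -0.003 over all tested genes, with 19 members above 0 and 27 below. For 28 of the 46 members the 95% interval of the log2 fold change lay within 1 of 0 on both sides. By the counts called, the members as a set therefore stood at or below the background of this comparison. The number of lower members changed with the samples used. Without cachexia replicate 2, 7 of the 46 members were lower, beside 930 of 16574 tested genes. Without any other single sample, 0 members were lower.

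**Figure D1:**
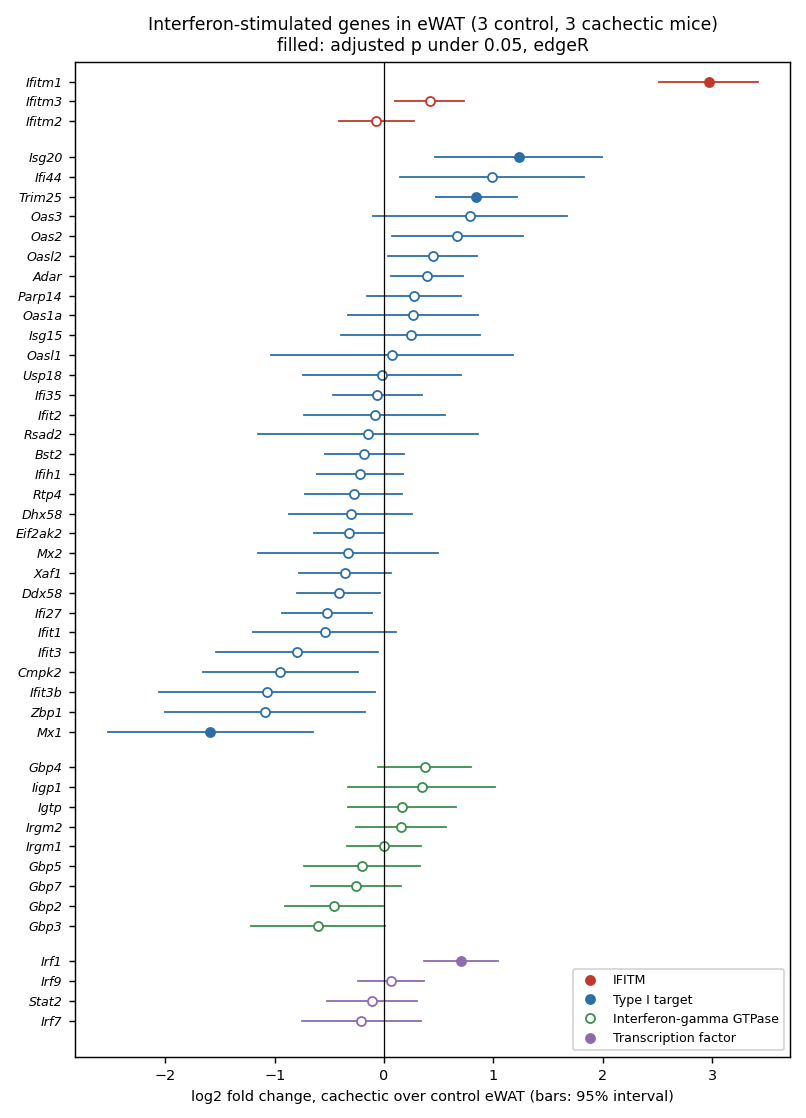
Log2 fold change of cachectic over control eWAT for each of the 46 members (points, filled where the adjusted p-value in edgeR was under 0.05) with its 95% interval (bars), ordered by size within the IFITM genes, type I targets, interferon-gamma GTPases and transcription factors. Ifitm1 stands apart at 2.97 with an interval from 2.52 to 3.42, Mx1 is lowest at -1.59, and the 9 GTPases lie between -0.61 and 0.37.

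Of the 3 IFITM genes, Ifitm1 was upregulated, and Ifitm2 and Ifitm3 did not pass the threshold. Ifitm1 (chromosome 7, 140967221 to 140969825, plus strand, GRCm38), which codes for a restriction factor of the plasma membrane, had 3.26, 3.55 and 2.55 CPM in the control mice and 26.9, 23.8 and 22.6 CPM in the cachectic mice. Every cachectic mouse was above every control mouse, and the 3 mice of each group lay close together. The log2 fold change was 2.97 ± 0.19 (SE, n = 3 per group), a 7.82-fold difference with an adjusted p-value of 0.000878 in edgeR. These values rest on 45 to 65 counts per control library and 345 to 462 per cachectic library.

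Ifitm2 (140954837 to 140955987, minus strand), a restriction factor of endosomes, had 100.04, 111 and 111 CPM in control mice and 86.3, 101 and 119 CPM in cachectic mice. The groups overlapped, and the log2 fold change of -0.07 had a 95% interval from -0.42 to 0.27 (adjusted p-value of 0.779 in edgeR). Ifitm2 overlaps the gene model Gm45717 on the same strand, so reads of the pair could not be separated here. Ifitm3 (141009586 to 141010770, minus strand), the main endosomal member against influenza virus, had 171, 183 and 151 CPM in control mice and 212, 228 and 234 CPM in cachectic mice. All 3 cachectic mice lay above the control mice by a small margin, and the log2 fold change of 0.42 ± 0.14 (SE) missed the threshold with an adjusted p-value of 0.0716 in edgeR. The DESeq2 test put Ifitm3 past the threshold with an adjusted p-value of 0.0192.

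Within each library the ratio of Ifitm1 to Ifitm2 was a log2 ratio of -4.90 ± 0.25 (SD, n = 3) in control mice and -2.03 ± 0.36 in cachectic mice. The ratio of Ifitm1 to Ifitm3 moved from -5.55 ± 0.08 to -3.18 ± 0.20, and that of Ifitm3 to Ifitm2 from 0.64 ± 0.18 to 1.14 ± 0.16. The ratios were taken on log2(CPM + 0.5), so those of Ifitm1, at its low control level, depend in part on the added 0.5. In each of the 3 ratios the groups did not overlap. The ratios are made of the same counts as the single genes, and those of Ifitm1 follow its own difference. They are therefore not separate observations. The differences of 2.87, 2.37 and 0.50 each had a two-sided exact permutation p-value of 0.1, the smallest that 3 against 3 mice allow, and 0.1 after adjustment over the 4 ratios tested.

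**Figure D2:**
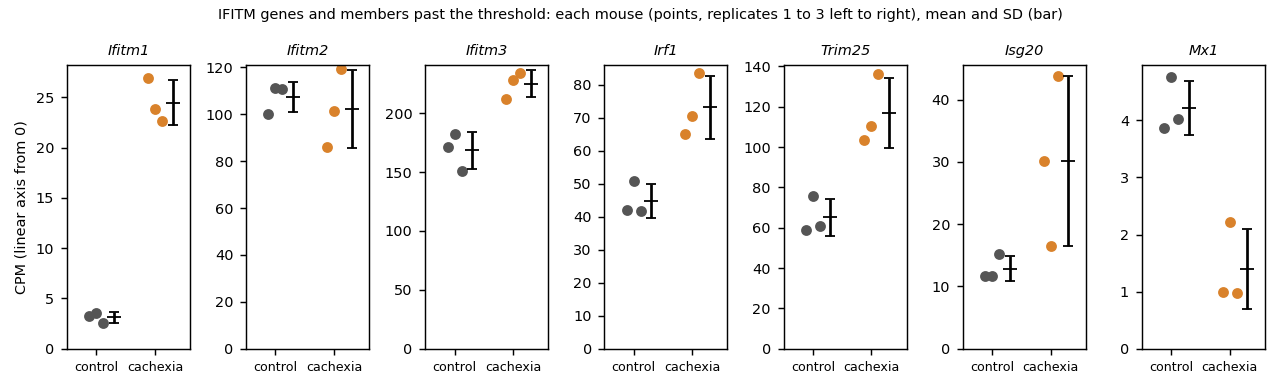
CPM in each mouse (points, control mice in grey and cachectic mice in orange) with the mean and SD (bar, n = 3) for the 3 IFITM genes and the other members past the threshold, each on its own linear axis from 0. Ifitm1 rises from 3.12 ± 0.516 to 24.5 ± 2.23 CPM, Ifitm2 overlaps between the groups, and the cachectic mice spread widely for Isg20 (30.2 ± 13.7 CPM).

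On the scale of the deposited FPKM, which is per gene length and so allows genes to be compared, Ifitm3 was the member with the highest level (245 ± 23.0 in control mice and 324 ± 15.6 in cachectic mice, SD, n = 3). Ifitm2 stood at 162 ± 9.25 and 153 ± 24.3 FPKM. Ifitm1 went from 2.82 ± 0.463 to 21.9 ± 2.05 FPKM, so it remained far below both neighbours after its change. By mean FPKM over the 6 mice Ifi27 (158) and Ifitm2 (157) followed Ifitm3 (285) and differed from each other by less than the spread between mice, then came Bst2 (51.7) and Gbp2 (27.9). The order ended with Mx1 at 0.730 and Oas3 at 0.307 FPKM.

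A further gene of the cluster, Ifitm6, was chosen after its values were seen. It had 4.67, 8.65 and 5.44 CPM in control mice and 10.6, 7.49 and 33.7 CPM in cachectic mice, with a log2 fold change of 1.46 ± 0.56 (SE) and an adjusted p-value of 0.107 in edgeR. The groups overlapped, and 1 cachectic mouse was well above the others. Markers of neutrophils moved with the groups: 14 of the 15 tested neutrophil markers were higher and none was lower, and the 17 markers of the list, none at 0 throughout, summed to between 34.6 and 53.0 CPM in control mice and to 305, 277 and 857 CPM in cachectic mice 1, 2 and 3. Ifitm1 had nearly the same level in these 3 mice, while Ifitm6 and Isg20 were highest in cachectic mouse 3, which had the highest neutrophil sum. That mouse was also the highest cachectic mouse for 16 of the 46 members and for 37.5% of all tested genes. The part of neutrophils in the values of the IFITM genes and of Isg20 was not tested. Endothelial markers were also higher, with 6 of 12 called and sums of 2318 to 2427 CPM in control mice against 3299 to 4685 CPM in cachectic mice, and their part was not tested either. Of all tested genes, 9.0% were called higher.

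Of the 30 type I targets, 2 were higher (Isg20 and Trim25), 1 was lower (Mx1) and 27 did not pass. The shares of 6.67% higher and 3.33% lower stand beside 9.0% and 8.63% of all tested genes. The groups did not overlap for 11 of the 30, beside 40.5% of all tested genes. Their median log2 fold change was -0.16, 11 were above 0 and 19 below, and the values ranged from -1.59 to 1.23.

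The 4 IFIT genes code for proteins that bind foreign RNA and block its translation. All 4 had log2 fold changes below 0 (Ifit1 -0.54, Ifit2 -0.09, Ifit3 -0.80, Ifit3b -1.07), none passed the threshold in edgeR or in DESeq2, and 2 had an unadjusted p-value under 0.05 in edgeR. Ifit3, the member of the family with the highest FPKM, had 24.2, 26.8 and 31.0 CPM in control mice and 13.7, 24.2 and 9.24 CPM in cachectic mice. Cachectic mouse 2 was just under the lowest control mouse and the other two were well below it. The adjusted p-value was 0.122 in edgeR, and it was 0.0205 without cachexia replicate 2, with a log2 fold change of -1.25. Ifit3 and Ifit3b are close copies whose reads may be split between them; with their counts summed the log2 fold change was -0.86 (adjusted p-value of 0.112 in edgeR).

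The OAS family makes the 2-5A messenger that activates RNase L when double-stranded RNA is present. All 5 members had log2 fold changes above 0 and none passed in edgeR or in DESeq2 (Oas1a 0.26, Oas2 0.67, Oas3 0.79, Oasl1 0.07, Oasl2 0.44), with 2 at an unadjusted p-value under 0.05 in edgeR. Oasl2, which had the highest FPKM of the family, had 24.6, 31.1 and 27.1 CPM in control mice and 30.04, 38.4 and 44.3 CPM in cachectic mice. The groups overlapped through 1 mouse of each. The sign for Oasl1 was below 0 in limma-voom (-0.05), in limma on FPKM and in the fit with a replicate block.

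The cytosolic RNA sensors Ifih1 (MDA5), Ddx58 (RIG-I) and Dhx58 (LGP2) had log2 fold changes of -0.22, -0.41 and -0.31, and none of the 3 passed in edgeR or in DESeq2, with 1 at an unadjusted p-value under 0.05 in edgeR. Ddx58 had 45.7, 61.7 and 51.4 CPM in control mice and 33.3, 44.2 and 41.7 CPM in cachectic mice, which did not overlap, and its adjusted p-value was 0.118 in edgeR.

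In the ISG15 system, which conjugates the ubiquitin-like ISG15 to proteins, 1 of 3 members passed, beside 17.6% of all tested genes. Trim25 (chromosome 11, 88999376 to 89020293, plus strand), a ubiquitin and ISG15 ligase that activates RIG-I, had 59.0, 75.6 and 60.8 CPM in control mice and 104, 110.3 and 136 CPM in cachectic mice. All cachectic mice were above all control mice, and the log2 fold change was 0.84 ± 0.16 (SE, n = 3 per group) with an adjusted p-value of 0.0132 in edgeR. Without control replicate 3 the adjusted p-value was 0.0722. Isg15 itself had 5.67, 4.07 and 6.57 CPM in control mice and 5.89, 5.71 and 7.74 CPM in cachectic mice, a log2 fold change of 0.24 with a 95% interval from -0.39 to 0.88. Usp18, the protease that removes ISG15, had a log2 fold change of -0.02 with an interval from -0.74 to 0.71.

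Of the 15 other effectors, Isg20 was higher, Mx1 was lower and 13 did not pass. Each call is 6.67% of the 15, beside 9.0% higher and 8.63% lower of all tested genes. Isg20 (chromosome 7, 78913424 to 78920396, plus strand), an exonuclease that degrades single-stranded RNA, had 11.7, 11.7 and 15.2 CPM in control mice and 30.2, 16.5 and 43.8 CPM in cachectic mice. The lowest cachectic mouse was only slightly above the highest control mouse, and the log2 fold change was 1.23 ± 0.33 (SE) with an adjusted p-value of 0.0393 in edgeR. The call was lost without any one of the 3 control mice or of cachectic mice 1 and 3, where the adjusted p-value in edgeR lay between 0.0878 and 0.119.

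Mx1 (chromosome 16, 97447035 to 97462907, minus strand), a dynamin-like GTPase that blocks influenza virus, had 3.86, 4.76 and 4.02 CPM in control mice and 0.991, 2.21 and 0.983 CPM in cachectic mice, from 71 to 83 counts per control library and 15 to 36 per cachectic library. All cachectic mice were below all control mice, and the log2 fold change was -1.59 ± 0.41 (SE) with an adjusted p-value of 0.0337 in edgeR. Many inbred strains, C57BL/6 among them, carry a defective Mx1 allele, so the counts are RNA of that allele and not a measure of the protein. Without any one of the control mice or of cachectic mice 1 and 3 the call was lost, with adjusted p-values in edgeR from 0.0520 to 0.105 and log2 fold changes from -1.65 to -1.39. Its neighbour Mx2 had a log2 fold change of -0.33 with an interval from -1.15 to 0.49.

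Ifi27, a mitochondrial protein and the effector with the highest FPKM, had 249, 308 and 278 CPM in control mice and 199, 157 and 227 CPM in cachectic mice. All cachectic mice were below the control mice, but the log2 fold change of -0.52 had an adjusted p-value of 0.0819 in edgeR. Cmpk2, a mitochondrial nucleotide kinase, and Zbp1, a sensor of Z-form nucleic acid, had log2 fold changes of -0.95 and -1.09 (adjusted p-values of 0.0691 and 0.0962 in edgeR). Ifi44 had a log2 fold change of 0.99 with an adjusted p-value of 0.0991 in edgeR. In DESeq2, these 4 genes passed the threshold in the same directions, with adjusted p-values from 0.0224 to 0.0475.

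The remaining effectors had smaller differences. Adar, the RNA-editing enzyme, was at 0.39 on the log2 scale, and Parp14, an ADP-ribosyltransferase, at 0.27. Eif2ak2 (PKR, a kinase that stops translation) was at -0.32, Xaf1 at -0.36, Rtp4 at -0.28, Bst2 (tetherin, which holds budding virions) at -0.18 and Ifi35 at -0.06. Rsad2 (viperin) was at -0.15 with an interval from -1.15 to 0.86, and the 3 cachectic mice stood at 13.8, 39.8 and 12.4 CPM around control values of 19.02, 29.9 and 24.3 CPM. Adar, Rtp4, Parp14, Eif2ak2 and Ifi35 overlap other gene models, and whether the counting used strand is not given in the sources used here.

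The interferon-gamma GTPases, which attack the vacuoles of intracellular pathogens, gave no call in either direction. Of the 9 members, 0 passed in edgeR, 1 (Gbp2) had an unadjusted p-value under 0.05, and 0 passed in DESeq2. Among all tested genes, 17.6% passed in edgeR and 34.4% had an unadjusted p-value under 0.05. The median log2 fold change of the 9 was -0.003, with 4 above 0 and 5 below. The groups overlapped for all 9, where 40.5% of all tested genes had groups that did not overlap. The 95% intervals reached from -1.22 to 1.02, and 7 of the 9 lay within 1 of 0 on both sides.

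Gbp2 (chromosome 3, 142620602 to 142638008, plus strand), the guanylate-binding protein with the highest FPKM of the group, had 68.0, 84.1 and 96.2 CPM in control mice and 53.4, 75.5 and 51.7 CPM in cachectic mice, with a log2 fold change of -0.46 ± 0.19 (SE) and an adjusted p-value of 0.139 in edgeR. The other guanylate-binding proteins were at -0.61 (Gbp3), 0.37 (Gbp4), -0.20 (Gbp5) and -0.25 (Gbp7). Gbp4 overlaps Gbp8 and Gbp9, and Gbp3 and Gbp7 are similar in sequence. With the counts of Gbp3 and Gbp7 summed, the log2 fold change was -0.39 (adjusted p-value of 0.184 in edgeR).

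The immunity-related GTPases Igtp, Irgm1 and Irgm2 were at 0.16, -0.00 and 0.16, with Igtp and Irgm2 sharing part of their locus. Iigp1 had 42.1, 47.5 and 49.5 CPM in control mice and 31.8, 72.2 and 72.6 CPM in cachectic mice, so that 1 cachectic mouse was below and the other two were above all control mice. Its log2 fold change was 0.34 (adjusted p-value of 0.443 in edgeR). Without cachexia replicate 1 it was 0.64 with an adjusted p-value of 0.0318, and Gbp3 was called lower without cachexia replicate 2 (log2 fold change of -0.96, adjusted p-value of 0.0260 in edgeR).

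Among the 4 transcription factors, Irf1 was higher and the other 3 did not pass, beside 9.0% of all tested genes called higher. Irf1 (chromosome 11, 53770014 to 53778374, plus strand), which is induced by interferons and also by inflammatory cytokines, had 42.0, 50.7 and 41.6 CPM in control mice and 65.1, 70.6 and 83.6 CPM in cachectic mice. All cachectic mice were above all control mice, and the log2 fold change was 0.71 ± 0.15 (SE, n = 3 per group) with an adjusted p-value of 0.0172 in edgeR. Irf1 overlaps Gm17334 on the other strand. Without control replicate 3 the adjusted p-value was 0.0870. Irf7, the amplifier of the type I response, was at -0.21 on the log2 scale (interval from -0.75 to 0.34), and Irf9 and Stat2, partners in the ISRE-binding complex, were at 0.07 (-0.23 to 0.37) and -0.11 (-0.52 to 0.30).

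Individual mice of a group differed from each other in these genes. Cachectic mouse 2 had the highest level of the 3 cachectic mice for 22 of 30 type I targets (73.3%) and for 6 of 9 GTPases, against 33.3% of all tested genes. In the control group, mouse 2 was highest for 20 of 30 type I targets and 31 of all 46 members, against 5192 of the 16003 tested genes. The median deviation of the type I targets from the control mean was -0.40, 0.06 and -0.31 on the log2 scale in cachectic mice 1, 2 and 3, and -0.13, 0.16 and -0.02 in control mice 1, 2 and 3. Cachectic mouse 2 thus lay inside the control range while the other two lay below it. The GTPases were at -0.38, 0.24 and 0.16 in the cachectic mice. Mouse 1 lay below the control range of -0.13 to 0.06, and mice 2 and 3 lay above it. The median of the 3 IFITM genes was at 0.34, 0.44 and 0.48, all above the control range of -0.15 to 0.12. In the cachectic mice this median is the value of Ifitm3 alone, which did not pass the threshold in edgeR. Ifitm2 overlapped between the groups, so these values do not describe a shift of all IFITM genes.

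Without cachexia replicate 2, 7 of the 46 members were lower (Cmpk2, Gbp3, Ifit3, Ifit3b, Mx1, Rsad2 and Zbp1), in place of 1, and the same 4 were higher. Over all 16574 genes tested in that fit, 930 were lower and 1096 higher. The share called lower was thus larger among the members than among all genes in that fit, unlike in the fit of all mice. Without any other single sample, 0 members were lower. Cachectic mouse 2 was the highest cachectic mouse for 22 of 30 type I targets, so leaving it out lowers the cachectic level of those genes. Members share regulators, so their number is not a number of independent observations.

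**Figure D3:**
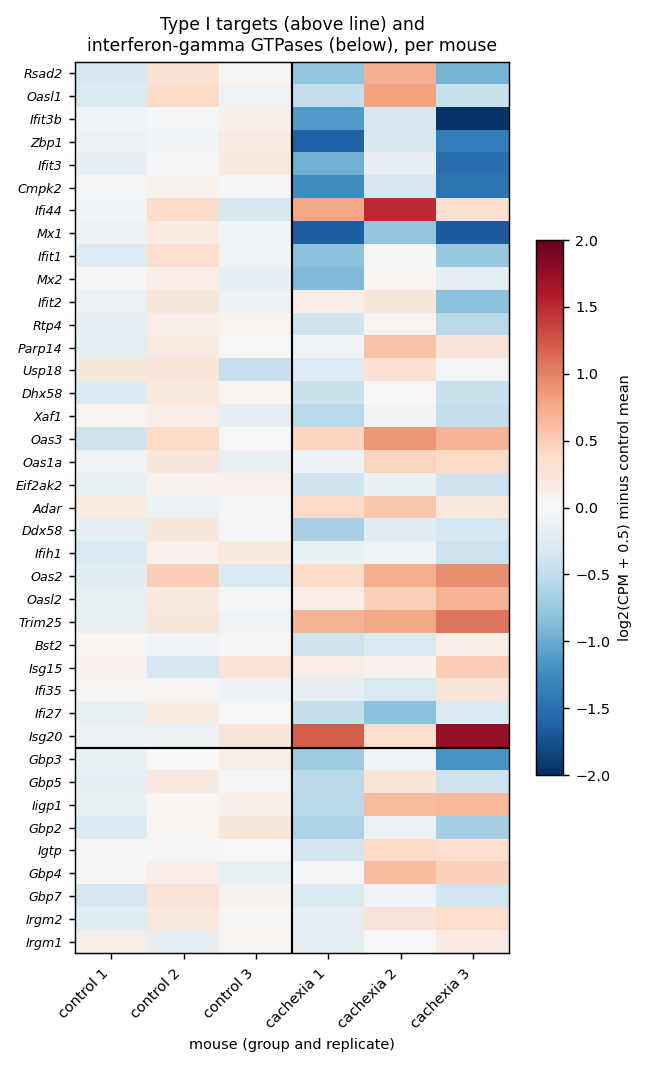
Log2(CPM + 0.5) of each type I target (above the horizontal line) and interferon-gamma GTPase (below it) in each of the 6 mice, minus the control mean of the gene. Genes are ordered by how far cachectic mouse 2 lies above the mean of cachectic mice 1 and 3, which puts Rsad2 (13.8, 39.8 and 12.4 CPM in cachectic mice 1, 2 and 3) first and Isg20 (30.2, 16.5 and 43.8 CPM) last among the type I targets, and values beyond 2 take the end color.

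The genes upstream of the members were read from lists of the pathway. Of 21 interferon genes, none had enough counts to be tested, and 17 had no count in any library, where a count of 0 allows up to 3 counts, or 0.150 to 0.196 CPM. Ifnb1 had 2 counts in 1 control library and none elsewhere. Ifng, which overlaps Gm49751 on the same strand, had 13, 10 and 9 counts in control mice and 2, 0 and 2 in cachectic mice. The groups did not overlap, and the exact permutation p-value was 0.1, the smallest possible. RNA counts of this size do not measure the protein. Markers of T and natural killer cells, the main source of interferon-gamma, summed to 19.9 to 30.9 CPM in control mice and 10.2 to 22.5 CPM in cachectic mice, with 1 of 12 tested lower, 0 higher and none of the 14 at 0 throughout, and their part in the Ifng counts was not tested. The 1 lower marker is 8.33% of the 12, beside 8.63% of all tested genes.

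The interferon-gamma receptor chains moved in opposite directions. Ifngr1, the ligand-binding chain, had 263, 249 and 275 CPM in control mice and 385, 403 and 526 CPM in cachectic mice. It was higher in all 3 cachectic mice, with a log2 fold change of 0.74 ± 0.17 (SE) and an adjusted p-value of 0.0248 in edgeR. Ifngr2, the signalling chain, had 36.5, 42.2 and 42.2 CPM in control mice and 26.5, 25.2 and 29.5 CPM in cachectic mice. It was lower in all 3 cachectic mice, with a log2 fold change of -0.57 ± 0.13 (SE) and an adjusted p-value of 0.0235 in edgeR. The log2 ratio of Ifngr1 to Ifngr2 was 2.69 ± 0.14 (SD, n = 3) in control mice and 3.98 ± 0.15 in cachectic mice, and the difference of 1.29 had an exact permutation p-value of 0.1. This ratio follows from the calls of Ifngr1 and Ifngr2 and is not a separate observation. Both calls were lost with a replicate block. Ifngr1 was not called without control replicate 1, 2 or 3 (adjusted p-value of up to 0.0976 in edgeR), nor Ifngr2 without control replicate 2 or 3 or cachexia replicate 1 or 2 (up to 0.106), while the log2 fold changes stayed between 0.59 and 0.82 for Ifngr1 and between -0.64 and -0.52 for Ifngr2. The type I chains Ifnar1 (log2 fold change of -0.40, adjusted p-value of 0.107 in edgeR) and Ifnar2 (0.02) did not pass, and 4 of the 6 receptor genes did not pass in all. The 1 higher and the 1 lower are each 16.7% of the 6, beside 9.0% and 8.63% of all tested genes.

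Of 15 signal transducers and regulators, 1 was higher and 2 were lower. These shares of 6.67% and 13.3% stand beside 9.0% and 8.63% of all tested genes. Irf3, the factor that first induces interferon-beta, was higher at 0.42 (adjusted p-value of 0.0482 in edgeR). Irf5 and Irf8, factors of macrophages, dendritic cells and B cells, were lower at -0.88 and -0.82 (adjusted p-values of 0.0151 and 0.0132 in edgeR). The call of Irf3 was kept in 3 of 10 alternatives other than leaving out a mouse, and was lost without any mouse but cachexia replicate 2 (adjusted p-value of up to 0.174 in edgeR), and it was also lost with a replicate block. Without control replicate 3 Irf5 and Irf8 did not pass (up to 0.0642 and 0.0663), nor did Irf5 without control replicate 2.

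Of 12 tested genes of nucleic acid sensing, Tmem173 (STING) was the 1 that passed, with a log2 fold change of 0.98 ± 0.15 (SE) and an adjusted p-value of 0.00613 in edgeR. It had 21.1, 22.2 and 17.6 CPM in control mice and 36.0, 44.2 and 40.1 CPM in cachectic mice. STING is the adaptor through which cytosolic DNA leads to interferon-beta, and every cachectic mouse was above every control mouse. The call held with any 1 mouse left out. The 1 call is 8.33% of the 12 genes, beside 9.0% of all tested genes called higher.

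Beyond the 46 members, 56 further interferon-stimulated genes were tested, of which 5 were higher, 5 were lower and 46 did not pass, with a median log2 fold change of 0.05. The 5 higher were Ifitm10 (1.89), Slfn1 (1.24), Helz2 (0.71), Tor3a (0.62) and Uba7 (0.51, the enzyme that activates ISG15). The 5 lower were Gbp2b (-3.13), Cxcl9 (-1.84), Slfn9 (-1.36), Gbp6 (-1.19) and Lgals3bp (-1.11). Each share, 8.93%, was close to the background shares of 9.0% and 8.63%. Cxcl9, a chemokine induced by interferon-gamma that draws T cells, had 35.6, 43.9 and 54.1 CPM in control mice and 14.2, 12.8 and 10.2 CPM in cachectic mice, with an adjusted p-value of 0.00250 in edgeR. All cachectic mice were below all control mice. With 1 mouse left out at a time, Cxcl9 and Lgals3bp passed in 6 of 6 fits, Tor3a in 5 (not without control replicate 3), Gbp6 and Ifitm10 in 2, Gbp2b, Helz2, Slfn1 and Slfn9 in 1, and Uba7 in 0, with adjusted p-values in edgeR of up to 0.166 where the call was lost. With a replicate block Gbp2b, Slfn1, Slfn9 and Uba7 did not pass. Gbp2b and Gbp6 are guanylate-binding proteins like the members Gbp2, Gbp3, Gbp4, Gbp5 and Gbp7, which did not pass, and Gbp2b rests on 11 to 29 counts per control library and 0 to 3 per cachectic library.

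**Figure D4:**
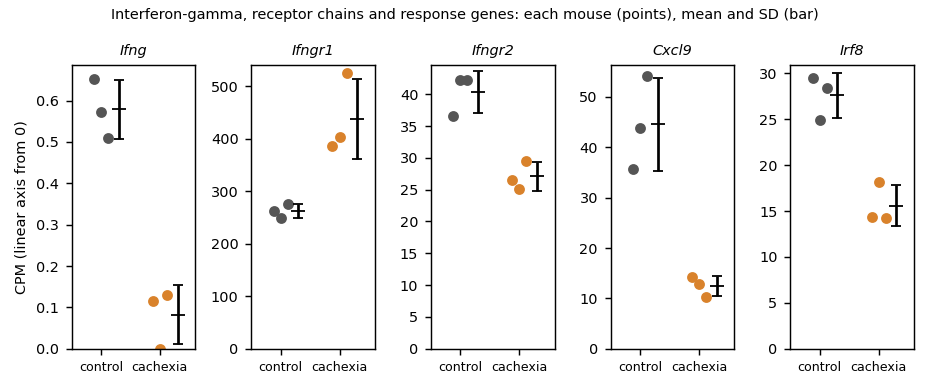
CPM in each mouse (points, control mice in grey and cachectic mice in orange) with the mean and SD (bar, n = 3) for interferon-gamma, its receptor chains, Cxcl9 and Irf8, each on its own linear axis from 0. Ifngr1 is higher and Ifngr2, Cxcl9 and Irf8 are lower in all 3 cachectic mice, and Ifng reaches at most 0.652 CPM.

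For markers of other cells, the sums separated the groups in the B cell, progenitor and erythroid lists and overlapped in the other lists given here. B cell markers summed to 424 to 541 CPM in control mice and to 143, 56.9 and 11.6 CPM in cachectic mice 1, 2 and 3 (1 of 7 lower, none higher). Dendritic cell markers were lower for 2 of 7 tested, with sums of 62.3 to 75.7 CPM and 53.1 to 71.6 CPM. Macrophage markers gave 2 higher and 1 lower of 12, with overlapping sums of 1602 to 2005 CPM and 1338 to 2075 CPM. Progenitor markers were lower for 5 of 10 and higher for 1, with sums of 5557 to 6239 CPM and 2558 to 3497 CPM. Of the 7 genes of the plasmacytoid dendritic cell list, which includes the member Bst2, 3 had enough counts. Of these, 0 passed in edgeR and 0 had an unadjusted p-value under 0.05, with list sums of 193 to 225 CPM and 207 to 269 CPM. The sums include Bst2, which other cells of the tissue express too, so they do not measure plasmacytoid dendritic cells alone. Mesothelial markers gave 0 calls in edgeR among 8, with 1 at an unadjusted p-value under 0.05 and sums of 374 to 413 CPM and 170 to 406 CPM. Erythroid markers were higher for 6 of 6, with sums of 252 to 451 CPM and 1334 to 2856 CPM. The counts called in each list stand beside 9.0% of all tested genes called higher and 8.63% called lower. The part of these cells in the values of the members was not tested.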

How the data were processed

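RNA was extracted from eWAT of 3 control and 3 cachectic mice and sequenced by the authors. Per the study's methods the reads were filtered, aligned with Hisat2 and counted per gene with featureCounts (version 1.5.0-p3 in the submitters' processing notes), and the authors deposited the raw counts and FPKM values. The authors' deposited FPKM divide the count by gene length and depth. The notes name mm9, but 99.9% of the gene identifiers are in GENCODE M21 and 98.3% of these have its GRCm38 coordinates, as do 45 of the 46 members, so coordinates are given as GRCm38. How strand and multi-mapped reads were treated is not given in the sources used here. A deposited table of the authors' DESeq2 1.16.1 comparisons (fold changes and p-values) was not used.

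Counts of all 6 samples were fitted in edgeR 4.0.16 under R 4.3.3. Genes were kept by filterByExpr, TMM factors were 0.937 to 1.07, and the quasi-likelihood p-values were adjusted by Benjamini and Hochberg over the 16003 genes kept, with 0.05 as the threshold. The biological coefficient of variation was 0.264, and CPM are TMM-normalized. Total counts of 14928766 to 18855546 per sample set the counting precision; the floor of 3 counts covers counting error only. No 2 libraries had near-identical counts. The labels do not say that the samples of a group came from separate mice. They were treated as separate, and p-values measure the spread between these samples, which may be technical. Ratios were tested by a two-sided exact permutation test on log2(CPM + 0.5).

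The members and lists were chosen with earlier results of these data known. All members are accounted for by group, and values in every sample are given for the IFITM genes, each member past the threshold and the member of highest mean FPKM in each group. From the pathway lists, the called genes and Ifng, Ifnb1, Ifngr1 and Ifnar1 are named. A further gene that the rule covers is not reported here. Genes given beside these were chosen after their values were seen.

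Alternatives were RLE size factors, library totals, the low count filter dropped or set to 10 counts in each sample, DESeq2 1.42.0, limma-voom (limma 3.58.1), limma on log2(FPKM + 1) and log2(FPKM + 0.1), a replicate block, protein-coding genes alone, close copies summed, and each sample left out in turn. The fits were tested on simulated data. The figures were drawn with matplotlib 3.10.9.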

Additional observations from a re-analysis of the deposited data

How the results depend on the processing

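Ifitm1 passed the threshold in all 16 alternatives, with log2 fold changes from 2.59 to 3.07 and adjusted p-values of at most 0.00933. Trim25 and Irf1 passed in 15 of 16, Mx1 in 11 and Isg20 in 8. The same 5 members were called with RLE size factors, library totals, no count filter, at least 10 counts in every sample, the replicate block and protein-coding genes alone. DESeq2 called 6 of the 46 members higher, among them 2 IFITM genes and 3 type I targets. It called 4 members lower, all of them type I targets. Over all 16003 genes it called 1955 higher and 1929 lower. The limma-voom test called 3 members higher, 1 of them a type I target, and 2 members lower, both type I targets. Over all genes it called 1374 higher and 1390 lower. In limma on log2(FPKM + 1) and on log2(FPKM + 0.1), 3 members were higher, 1 of them a type I target, and 1 was lower.

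Replicate numbers come from the labels, and nothing in the methods pairs them. Deviations of same-numbered samples had correlations of -0.003, -0.01 and 0.008, and not every sample correlated best with its own number. These values gave no sign that the numbers pair the samples, but values so close to 0 cannot exclude it. With the replicate block 913 genes were higher and 968 lower, in place of 1440 and 1381, and the calls among the members did not change, while outside the members those of Ifngr1, Ifngr2, Irf3, Gbp2b, Slfn1, Slfn9 and Uba7 were lost.

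Leaving out 1 sample at a time gave 382 to 1197 genes higher and 446 to 1142 lower, with the lowest counts without control replicate 3 and the next without control replicate 2 (600 and 712). Among the members it gave 1 to 4 higher and 0 to 7 lower, among type I targets 0 to 2 higher and 0 to 6 lower, among GTPases 0 to 1 in each direction, and among transcription factors 0 to 1 higher. Fits with fewer samples have fewer residual degrees of freedom.

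Directions changed only for members with log2 fold changes from -0.21 (Irf7) to 0.07 (Oasl1) in the main fit. Some of these ranged widely with 1 sample left out. Rsad2 was called lower without cachexia replicate 2 and was above 0 without cachexia replicate 1 or 3. Usp18 was at 0.028 with library totals, 0.0016 with the replicate block and 0.0078 with protein-coding genes alone, and Irgm1 at 0.044 with library totals and 0.022 with protein-coding genes alone. Oasl1 was at -0.053 in limma-voom, -0.012 with log2(FPKM + 1), -0.067 with log2(FPKM + 0.1) and -0.055 with the replicate block. With 1 sample left out, log2 fold changes ranged from -0.59 to 0.33 for Oasl1, -0.23 to 0.12 for Usp18, -0.085 to 0.083 for Irgm1, -0.27 to 0.19 for Ifit2, -0.89 to 0.14 for Rsad2, -0.19 to 0.038 for Ifitm2, -0.29 to 0.039 for Stat2, -0.25 to 0.053 for Ifi35 and -0.50 to 0.0038 for Irf7. The cause of these shifts was not tested. With close copies summed, the 5 sets kept their direction and none passed. With 3 mice per group the 95% interval lay within 1 of 0 for 28 of the 46 members and reached further for the others.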
